A study of Mus musculus with 6 samples.

Results

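Small RNA reads were described at 3 kinds of mouse genome sequence that lie at or outside the ends of the assembled chromosomes or at isolated sites with unusually many reads. These were unplaced and randomly assigned scaffolds, the first stretch of each autosome up to 3.5 Mb, and a pair of windows at 98.48 to 98.51 Mb of chromosome 2 and 35.2 to 35.29 Mb of chromosome 9. Of the 1272548 deposited intervals, 3854 met this rule and 3366 of them held a read. Because the deposited intervals overlap, sums were taken over a set in which no interval overlaps another, and 308 of its 88351 intervals were members. Of these, 53 lay on scaffolds, 251 at chromosome starts and 4 in the windows (1 on chromosome 2 and 3 on chromosome 9). Sequences tied to X or Y were left out.

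The RNA came from C57BL/6 mouse germ cells, either wild type (WT) or lacking Dnmt3l (knockout, KO). At P0 the material was enriched neonatal germ cells, with 1 WT and 1 KO library. At P8 it was THY1+ cells, with 2 WT and 2 KO libraries. RNA of 15 to 36 nt was size-selected by gel, and 1 batch label covers all 6 libraries. Age and cell preparation changed together in this design, so their parts in any difference between P0 and P8 cannot be told apart. The intervals carry no gene names, so the labelled cell type was not checked against marker genes. The non-overlapping set held between 4370403 and 6119823 reads in each library.

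Mouse chromosomes carry the centromere near one end, where minor satellite repeats form the centromere and major satellite repeats form the pericentromeric heterochromatin beside it. These tandem arrays are mostly missing from the assembly, which begins after an unsequenced gap, and fragments of such sequence remain at chromosome starts and on scaffolds that could not be placed. A short patch of repeat in the assembly can collect reads from many copies elsewhere. DNMT3L has no methyltransferase activity of its own but assists the enzymes that set new DNA methylation in the male germ line, and piRNAs are germline small RNAs that direct silencing, including DNA methylation, to repeats. The deposited intervals have no repeat names and no genome of their build was used, so whether an interval holds satellite sequence was not checked, and the members are called here by position.

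In WT P0 the members took 3.58% of all reads, and in KO P0 they took 0.416%. At P8 they took 0.358% and 0.353% in WT and 0.329% and 0.319% in KO. The WT P0 library stood apart from the other 5, and it is the single WT library of that age, so its level has no replicate. The P0 difference between genotypes was one of the results that led to the choice of these sequences, so it is given as a description with no test.

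A small number of intervals made up most of that difference. Of the 73 members with at least 100 reads over both P0 libraries, 9 were at least 16-fold lower in KO than in WT at P0, on read counts scaled to a common total (CPM, reads per 1000000) by trimmed mean of M-values (TMM) factors. These 9 held 3.13% of all WT P0 reads and 0.0351% of KO P0 reads. They held 0.0629% and 0.0595% in the WT P8 pair, and 0.0066% and 0.00634% in the KO P8 pair. The other 299 members took 0.452% in WT P0, 0.381% in KO P0, 0.295% and 0.293% in the WT P8 pair, and 0.322% and 0.313% in the KO P8 pair. In bulk RNA of this kind, fewer cells of a type and less RNA per cell cannot be told apart.

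**Figure D1:**
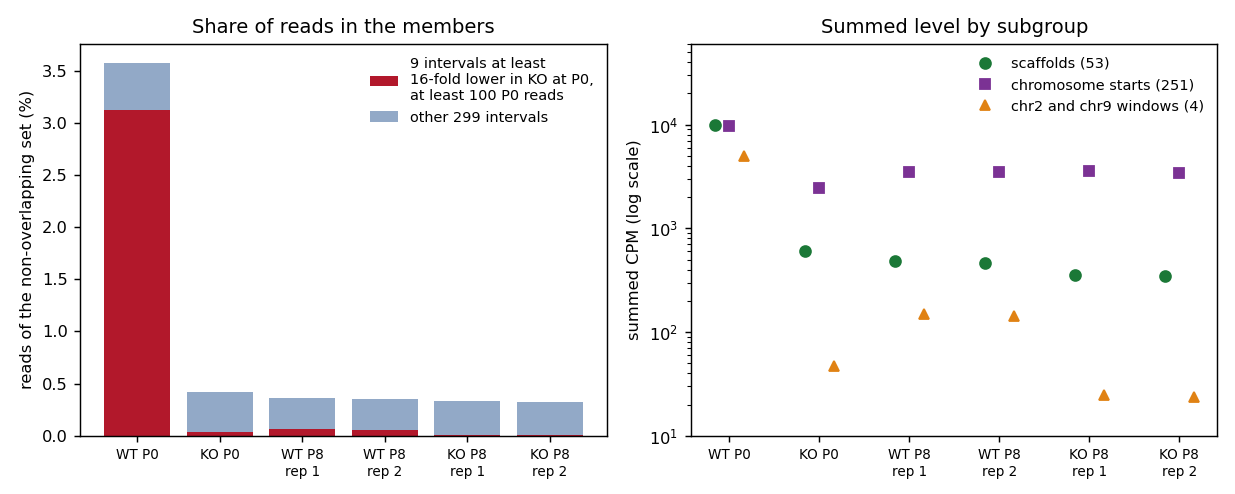
Left, the percentage of reads of the non-overlapping set that fell in the members, for each of the 6 libraries, as bars split into the 9 intervals of at least 100 P0 reads that were at least 16-fold lower in KO at P0 (red) and the other 299 (blue). Right, the summed TMM-scaled CPM of the scaffolds, chromosome starts and windows in each library, on a log scale. The WT P0 bar reaches 3.58% and is mostly red, and the other 5 bars lie between 0.319% and 0.416%.

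Of the same 73 members, 16 were at least 2-fold lower in KO and 8 at least 2-fold higher. The other 235 had fewer reads, and their P0 ratios were not ranked. Across all 14108 intervals of that depth, 4.35% were at least 2-fold lower, 9.84% were at least 2-fold higher, and 0.0851%, or 12 intervals, were at least 16-fold lower. The members supplied 9 of those 12, which the rule itself helped to fix. The member nearest to the 16-fold limit from within was 32.8-fold lower, and the nearest outside it was 8.43-fold lower.

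The interval with most reads in the WT P0 library, of all 88351, lay on the unplaced scaffold JH584304v1 (chrUn_JH584304v1:56548-114452, 57905 bp). It held 73673 WT and 864 KO reads at P0, then 1691 and 1414 in the WT P8 pair, and 210 and 206 in the KO P8 pair. WT P0 was by far the highest library, and both KO P8 libraries lay below both WT P8 libraries. The KO level was 56.4-fold lower at P0 (95% counting interval 52.7 to 60.3). At P8 the log2 fold change was -2.56 ± 0.11 (SE), and the level went from 308.3 ± 19.5 CPM (WT) to 51.3 ± 0.478 CPM (KO; SD, n = 2 each). An earlier GENCODE annotation places 1 gene model on this scaffold, AC149090.1, which has no descriptive name.

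The second interval by reads in WT P0 was the first deposited stretch of chromosome 9 (chr9:3000001-3038402, 38402 bp). It held 57847 WT and 318 KO reads at P0, 1034 and 906 in the WT P8 pair, and 13 and 10 in the KO P8 pair. The libraries therefore ranked the same way as on JH584304v1, and the KO P8 libraries were nearly empty here. KO was 120-fold lower at P0 (108 to 135) and 68.1-fold lower at P8 (45.2 to 107.7), with levels at P8 of 192.8 ± 5.84 CPM in WT and 2.83 ± 0.511 CPM in KO.

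The third was the single member in the chromosome 2 window (chr2:98492576-98497677, 5102 bp). It held 40927 WT and 188 KO reads at P0, 692 and 599 in the WT P8 pair, and 7 and 1 in the KO P8 pair. KO was 144-fold lower at P0 (125 to 167) and 130.2-fold lower at P8 (65.9 to 302.3). Single KO libraries decided the size of the P8 difference, which edgeR put at -6.95 on the log2 scale with all 4 libraries, -8.85 without KO replicate 1 and -6.16 without KO replicate 2. The nearest deposited intervals outside the window on either side held 0 to 2 reads in every library. In KO P0 these 3 intervals ranked 762, 2340 and 4016 by reads, and in KO P8 replicate 1 they ranked 3301, 18605 and 23913.

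The next intervals were shorter but had the same order of libraries. At the start of chromosome 14 (chr14:3050005-3054056) there were 6955 reads in WT P0, 38 in KO P0, 156 and 163 in the WT P8 pair, and 2 and 1 in the KO P8 pair. At chr12:3159784-3160207, an interval of 424 bp, there were 1073 and 6 reads at P0, 29 and 12 in WT P8, and 0 in both KO P8 libraries. KO at P0 was 121-fold lower at the chromosome 14 interval and 118-fold lower at the chromosome 12 interval. Against a floor of 3 reads over the KO P8 pair, the chromosome 12 interval was at least 11-fold lower at P8.

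The scaffolds GL456389v1, GL456392v1 and GL456396v1 had the remaining members of this kind, and the earlier GENCODE annotation lists 0 genes on each. GL456389v1:10461-10878 held 3957 and 26 reads at P0, 103 and 91 in the WT P8 pair, and 0 and 1 in the KO P8 pair. GL456392v1:16909-23626 held 2717 and 11 reads at P0, 49 and 43 in WT P8, and 0 in both KO P8 libraries. Both had few or no KO reads at P8, with KO levels at P0 100.6-fold and 163-fold lower. Against the same floor, GL456392v1 was 24.8-fold lower at P8, with a counting interval that began at 19.7-fold. GL456396v1:6401-12219 was shallower, with 370 and 5 reads at P0, 7 and 5 in the WT P8 pair, and 2 and 0 in the KO P8 pair, too few to separate the P8 groups firmly.

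Per length, 7 of these 9 intervals were far denser than most others in the WT P0 library. GL456389v1 reached 1066 CPM per kb and the chromosome 2 window 903 CPM per kb. The chromosome 12, 14 and 9 starts had 285, 193 and 170 CPM per kb, JH584304v1 had 143 and GL456392v1 had 45.5. Intervals outside the 3 kinds of sequence had a median of 0.211 CPM per kb in that library, and 99% of them lay below 16.8. GL456396v1, with 7.16 CPM per kb, and the long interval of the chromosome 9 window, with 7.25, lay below that limit too. The 9 were chosen through high reads in this same library, so a high density is partly set by the choice. Of the 88043 intervals outside, 74008 had fewer than 100 reads over both P0 libraries.

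Within the chromosome 2 window the reads were packed still more tightly. A deposited interval of 394 bp (chr2:98497105-98497498) held 21469 of the WT P0 reads, 52.5% of the window, at 6135 CPM per kb. One of 597 bp (chr2:98496917-98497513) held 71.4%. Moving the end of an interval by 8 bases, from 98497483 to 98497491, raised its WT P0 reads from 27236 to 32339, so 5103 reads depended on the inclusion of these bases. The shorter interval kept the order of libraries, with 106 reads in KO P0, 391 and 322 in the WT P8 pair, and 5 and 1 in the KO P8 pair.

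The long interval of the chromosome 9 window (chr9:35216470-35275831, 59362 bp) differed from the others at P8. It held 3820 WT and 77 KO reads at P0, a 32.8-fold difference, but 88 and 77 reads in WT P8 against 90 and 88 in KO P8. The KO libraries were slightly higher at P8, by 0.45 ± 0.16 on the log2 scale, and that call was lost with DESeq2, with total-count scaling and whenever 1 library was left out.

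Deposited intervals nested inside it separated 2 stretches. The inner one was the narrowest that held at least 90% of the WT P0 reads. The P0 contrast between it and the remainder is therefore partly set by the choice. An inner interval of 412 bp, chr9:35216491-35216902, held 97.3% of the WT P0 reads of the long one. It had 3716 reads in WT P0, 21 in KO P0, 53 and 34 in WT P8, and 0 in both KO P8 libraries. The rest of the interval held 104 and 56 reads at P0, 35 and 43 in the WT P8 pair, and 90 and 88 in the KO P8 pair. The short stretch therefore had the order of libraries seen at chromosomes 2, 9 and 14, whereas in the remainder both KO P8 libraries exceeded both WT P8 libraries. In the short stretch KO was 117-fold lower at P0, and at P8 at least 23.4-fold lower.

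The long JH584304v1 interval could be split too, but its inner interval covered 45915 of 57905 bp and its remainder was also lower in KO at P0. The narrowest deposited interval holding at least 90% of the WT P0 reads, JH584304v1:68488-114402, had 66663 reads in WT P0, 319 in KO P0, 1406 and 1157 in the WT P8 pair, and 15 and 12 in the KO P8 pair. The remainder had 7010 and 545 reads at P0, 285 and 257 in the WT P8 pair, and 195 and 194 in the KO P8 pair. In the inner interval KO was 138-fold lower at P0 and 76.6-fold lower at P8. In the remainder the P0 difference was 8.5-fold and the P8 ratio of WT to KO was 1.12, with a counting interval of 0.985 to 1.28. Here too the choice by WT P0 reads partly sets the P0 contrast.

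**Figure D2:**
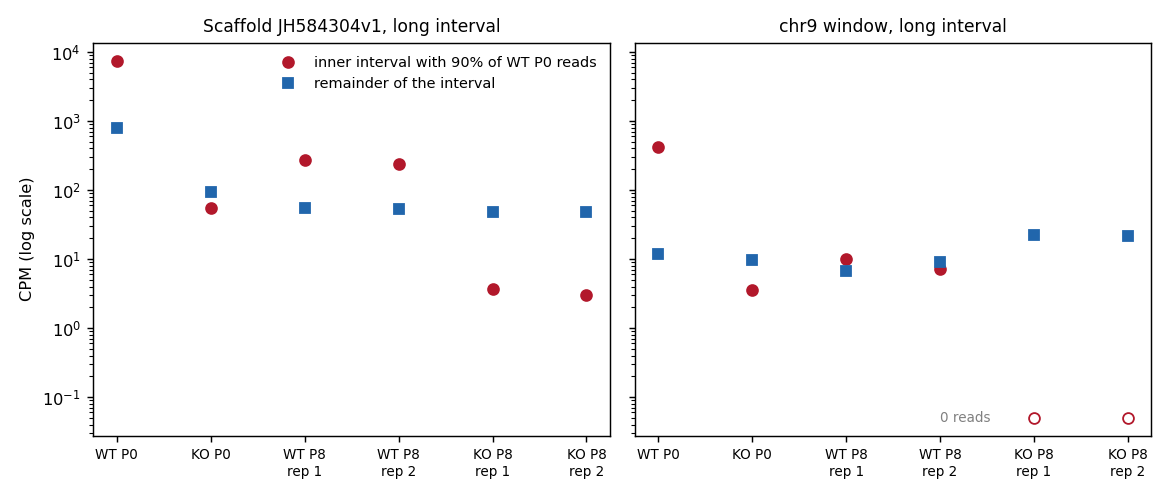
TMM-scaled CPM per library on a log scale for the long intervals of the chromosome 9 window and of JH584304v1, divided into the inner stretch that holds most WT P0 reads and the remainder. The inner stretches were 117-fold and 138-fold lower in KO at P0 and stayed low in KO P8, while the remainders had similar or higher KO levels at P8.

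The same choice of inner interval was made for all 9, by a rule set after their values had been seen. Their summed level was 19798 CPM for WT and 153 CPM for KO at P0, 129-fold lower (121 to 138). At P8 the WT level was 621 ± 35.1 CPM and the KO level 7.64 ± 2.41 CPM (SD, n = 2 each), 81.3-fold lower. In total the KO P8 libraries had 62 reads here and the WT P8 libraries 6254, and at each of the 9 both WT P8 libraries were above both KO P8 libraries. Leaving aside the shallow GL456396v1 interval, KO P0 had 0.405% to 0.655% as many reads as WT P0 at each of the other 8. These intervals were picked for low KO values, so the agreement among them is partly set by the choice.

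**Figure D3:**
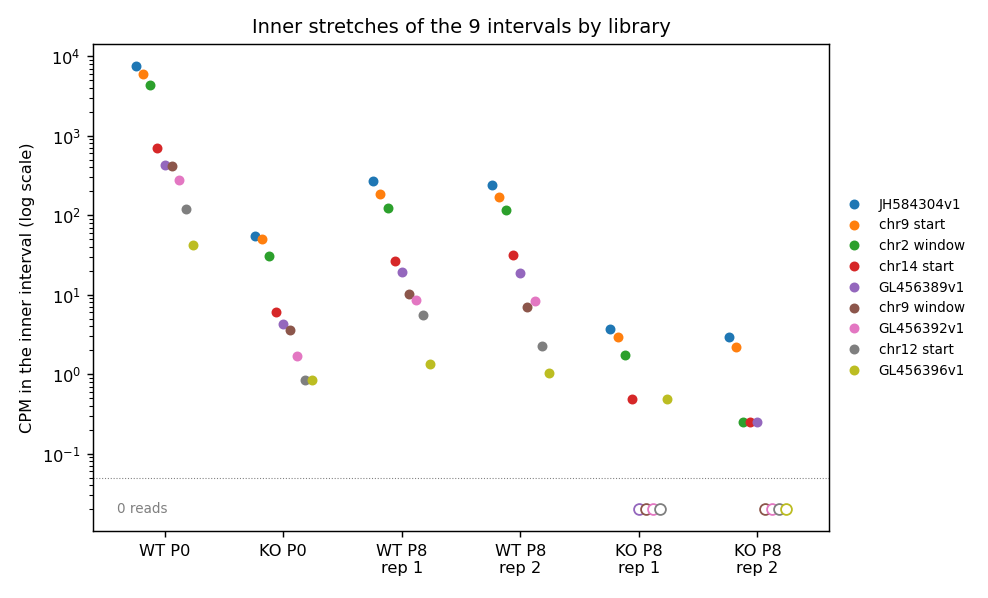
TMM-scaled CPM per library (log scale) in the inner stretch of each of the 9 intervals at least 16-fold lower in KO at P0, with open symbols for 0 reads. WT P0 is the highest library at each, and both KO P8 libraries lie below both WT P8 libraries at all 9.

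The 9 inner stretches were also lower at P8 than at P0 in each genotype. WT was 31.9-fold lower and KO 20.1-fold lower on TMM-scaled CPM. With total-count scaling these became 53.8-fold and 32.5-fold, since TMM shifts all P0 to P8 ratios by 1.69 times in WT and 1.61 times in KO. Both scalings gave the same direction for these stretches. The 9 were chosen through high reads in the single WT P0 library, so their WT ratio of P0 to P8 is partly set by the choice. For the other 299 members the WT ratio of P0 to P8 was 0.91 with TMM and 1.54 with total counts, so its direction depended on the scaling.

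By kind of sequence, the scaffolds summed to 9839 CPM for WT and 602 CPM for KO at P0, 16.3-fold lower (15.8 to 16.9). Their P8 sums were 474.8 ± 19.4 CPM (WT) and 350.8 ± 0.59 CPM (KO), a ratio of KO to WT of 0.739. JH584304v1 alone had 8754 CPM of the WT P0 sum. Without the 4 deep losses, scaffolds summed to 750 CPM for WT and 448 CPM for KO at P0. At P8 these remaining scaffolds ran the other way, with 136 and 138 CPM in WT and 299.1 and 299.2 CPM in KO, 2.18-fold higher in KO.

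Most of that P8 excess came from another stretch of JH584304v1, the scaffold of the interval with most WT P0 reads. JH584304v1:22337-51988 had 3412 reads in WT P0, 1062 in KO P0, 314 and 303 in the WT P8 pair, and 781 and 768 in the KO P8 pair. The KO level was 2.12-fold lower at P0, whereas at P8 it rose in KO from 61.5 ± 2.33 to 190.9 ± 1.45 CPM, a log2 fold change of 1.67 ± 0.1 (SE). This interval ends 4.56 kb before JH584304v1:56548-114452 begins, and their P8 changes were opposite. On the same scaffold, JH584304v1:1629-19467 had 586 and 111 reads at P0, 37 and 38 in the WT P8 pair, and 45 and 47 in the KO P8 pair. It too was lower in KO at P0, by 3.49-fold, and higher at P8, by 0.63 ± 0.22 on the log2 scale, a call that was lost with DESeq2, with total-count scaling and whenever 1 library was left out.

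Other scaffold intervals showed no single pattern. The chromosome 1 random scaffold GL456211v1 (34904-76220) had 220 and 137 reads at P0, a ratio of KO to WT of 0.942. At P8 it had 15 and 28 reads in WT and 49 and 45 in KO, higher by 1.46 ± 0.31 on the log2 scale. On the chromosome 1 random scaffold GL456212v1 (125143-138484) there were 217 WT and 22 KO reads at P0, a 6.52-fold lower level, and at most 7 reads in any P8 library. GL456378v1:11098-28621 had 917 and 429 reads at P0, 84 and 75 in the WT P8 pair, and 97 and 104 in the KO P8 pair, a P8 log2 fold change of 0.68 ± 0.16 after an opposite difference at P0. The chromosome 5 random scaffold JH584297v1 (125937-129480) had 225 and 276 reads at P0 and was higher in KO at P8 by 0.62 ± 0.19. The P8 call on GL456378v1 was lost with DESeq2 and without either WT replicate. That on JH584297v1 was lost with DESeq2 and without WT replicate 2. Of 13 scaffold intervals with at least 100 reads at P0, 7 were at least 2-fold lower in KO and 0 were 2-fold higher. Across all 14108 intervals of that depth, the shares were 4.35% lower and 9.84% higher. The 7 include the 4 deep losses on scaffolds, and the P0 difference was one of the results behind the choice of these sequences. Among the rest of the 7, only the GL456212v1 interval lay outside JH584304v1.

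The windows summed to 5041 CPM for WT and 47.4 CPM for KO at P0, 106-fold lower. At P8 they summed to 150 and 142 CPM in WT and 24.8 and 23.5 CPM in KO, 6.06-fold lower. The KO P8 sum was almost all from the remainder of the long chromosome 9 interval. The other 2 members of the chromosome 9 window had at most 16 reads in any library.

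The chromosome starts held most members, and at P0 their summed level was close in both genotypes once 3 intervals were set aside. They summed to 9778 and 2450 CPM in the P0 libraries (WT, then KO), 3534 and 3485 CPM in WT P8, and 3593 and 3448 CPM in KO P8. Without the deep losses on chromosomes 9, 12 and 14 the P0 sums were 2360 and 2388 CPM, a ratio of KO to WT of 1.01. At P8 they were then 3281 CPM in WT and 3517 CPM in KO.

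The P0 difference at chromosome starts was concentrated in the first 0.1 Mb. Over all autosomes, intervals between 3 and 3.1 Mb summed to 7365 CPM for WT and 135 CPM for KO at P0. Nearly all of the WT sum came from those deep losses. The chromosome 9 interval had 6513 CPM for WT and 54.2 CPM for KO, and the chromosome 14 interval 783 and 6.47 CPM. The bin sum thus describes these already chosen intervals and not a trend over chromosomes. At P8 the same bin had 231.8 and 228.1 CPM in WT and 11.6 and 9.64 CPM in KO. Between 3.1 and 3.2 Mb the sums were 912 and 512 CPM at P0, and KO was higher at P8, with 376.3 ± 8.26 CPM (WT) against 662.9 ± 19.7 CPM (KO). Nearly all of that P8 excess came from chr11:3075423-3112722 and chr7:3170762-3195178. Most of the P0 difference came from the same chromosome 11 interval and the deep loss on chromosome 12. This sum too describes single intervals and not a trend over chromosomes. On either side of the 3.5 Mb limit the genotypes were close at P0. From 3.4 to 3.5 Mb they had 608 and 637 CPM, and from 3.5 to 3.6 Mb, outside the rule, 599.7 and 639.6 CPM.

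Chromosomes differed in their share. The start of chromosome 9 summed to 6523 CPM for WT and 66.6 CPM for KO at P0, and that of chromosome 14 to 785 and 9.54 CPM. The start of chromosome 11 had the highest P8 level, 1940 and 1876 CPM in WT and 1920 and 1727 CPM in KO, with 756 and 475 CPM at P0. Its main interval, chr11:3241121-3262504, had 71.3 CPM for WT and 58.4 CPM for KO at P0, against 1078 ± 1.48 CPM for WT and 920.6 ± 65.6 CPM for KO at P8. The age order there was thus opposite to that of the 9 intervals, and it stayed so with total-count scaling.

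A second chromosome 11 interval, chr11:3075423-3112722, had 479 CPM for WT and 235 CPM for KO at P0. The P8 levels were 214.3 ± 0.27 CPM (WT) and 352.1 ± 3.6 CPM (KO), higher by 0.75 ± 0.09 on the log2 scale. The short chr11:3262990-3263261 had replicates too far apart at P8 to order the genotypes, with 278.7 and 227.2 CPM in WT and 335.8 and 215.9 CPM in KO. At chr8:3426463-3479860 and chr19:3242533-3256250, the remaining high intervals, neither P8 difference passed the test, with log2 fold changes of -0.17 ± 0.09 and -0.05 ± 0.1.

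At P8, 93 of the 308 members had enough reads to be tested with edgeR's quasi-likelihood test, and the other 215 were filtered out. In KO, 18 were called higher (19.4%) and 16 lower (17.2%), at a Benjamini-Hochberg adjusted p under 0.05. Over all 23200 intervals tested, 22.5% were called higher and 20.1% lower. With the deep P0 losses included, the members' shares were near the background in both directions. Without them, 17 of 85 tested members were called higher (20%) and 9 lower (10.6%). The share called lower was thus near the background only with those chosen intervals. The median log2 fold change of the 93 tested members was 0.09, and that of the other intervals -0.02. At chromosome starts 12 of 79 tested were called higher and 12 lower. On scaffolds 5 of 12 were called higher and 3 lower, and in the windows 1 of 2 each way.

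Among called members with a mean of at least 10 CPM over the P8 libraries, chr2:3488071-3488439 had the highest P8 fold change. It is 369 bp long and lies just below the 3.5 Mb limit. It had 17 reads in WT P0, 15 in KO P0, 11 and 9 in the WT P8 pair, and 269 and 243 in the KO P8 pair. The 4 libraries other than KO P8 were alike in reads, and P8 levels went from 1.98 ± 0.156 to 63.1 ± 4.26 CPM, a log2 fold change of 5 ± 0.2.

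At chr8:3389663-3389865, of 203 bp, reads were 22 and 18 at P0, 64 and 57 in the WT P8 pair, and 264 and 230 in the KO P8 pair, a log2 fold change of 2.37 ± 0.15. At chr7:3170762-3195178 they were 173 and 142 at P0, 245 and 268 in the WT P8 pair, and 757 and 808 in the KO P8 pair, a log2 fold change of 1.94 ± 0.12. At these 3 intervals the counting interval of the P0 ratio included 1. The last of the 5 highest besides JH584304v1:22337-51988 was chr13:3188055-3221065, higher by 1.01 ± 0.23, a call that was lost without WT replicate 1.

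Of the 5 lowest called P8 fold changes among members whose mean over the 4 P8 libraries was 10 CPM or more, 4 were deep P0 losses, on JH584304v1 and chromosomes 9, 2 and 14. The other was chr5:3390220-3414083, with 183 and 111 reads at P0, 94 and 70 in the WT P8 pair, and 20 and 27 in the KO P8 pair. It fell in KO by 1.46 ± 0.24 on the log2 scale at P8, while its P0 ratio of KO to WT was 0.918 with a counting interval of 0.718 to 1.17.

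Among members higher in KO at P0, the largest ratio was at chr13:3135551-3139415, where 16 WT and 94 KO reads were counted, 8.89-fold (5.2 to 16.2). It had between 1 and 6 reads in each P8 library and was not tested. Both chromosome 15 members of this group were next. These were chr15:3388443-3398706 with 80 and 186 reads (3.52-fold) and chr15:3245092-3282053 with 116 and 262 reads (3.42-fold). At chr13:3084362-3097820 there were 89 and 148 reads, and at chr4:3311511-3319949 there were 233 and 348 reads. Neither of these last 2 had a P8 difference that passed the test, and the sign of both at P8 changed when single libraries were left out.

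**Figure D4:**
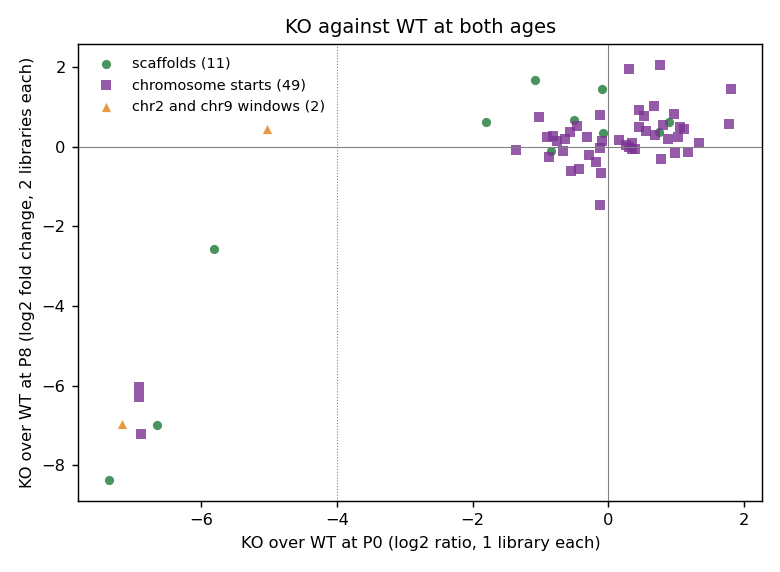
Log2 ratio of KO to WT at P0 (1 library each, horizontal) against the P8 log2 fold change (2 libraries each, vertical) for the 62 members that had at least 100 reads at P0 and were tested at P8, with the dotted line at a 16-fold loss at P0. The 8 intervals beyond that line are low on both axes apart from the long chromosome 9 window interval, and the remaining points lie around 0.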

How the data were processed

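The authors deposited raw read counts per genomic interval for 6 small RNA libraries, with coordinates on GRCm39. Tools listed in the submitters' processing notes are FastQC 0.10.1, cutadapt 1.13, Bowtie 1.1.1, TopHat2 2.1.1 and bedtools. Where the intervals come from, and how multi-matching reads were placed, is not given in the sources used here, and the level of any repeat interval depends on that placement. Starts were deposited counting from 0 and are printed counting from 1.

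Non-overlapping intervals were chosen over the whole table by the highest mean CPM first, regardless of genotype. CPM were scaled with TMM factors over the 6 libraries. P8 was fitted with edgeR 4.0.16 (R 4.3.3) on the 4 P8 libraries (filterByExpr, TMM, glmQLFit, glmQLFTest, two-sided, Benjamini-Hochberg adjustment over all tested intervals, threshold 0.05), with DESeq2 1.42.0 as an alternative. P0 has 1 library per genotype and no test. Its ratios have 95% intervals from the exact conditional binomial. These cover counting error only, as PCR copies without molecular identifiers are not independent. A level of 0 was compared through a floor of 3 reads over the group, which is not a lower limit of the difference. On simulated counts 79% of 2-fold and 99% of 4-fold changes were recovered, and 5 unchanged intervals of 22888 tested were called. The simulated counts shared a common dispersion, and changes were planted at 100 well-covered intervals per fold. These rates may differ for shallow members and for the real counts, where far more intervals were called.

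The members and the rules were chosen with earlier results of these data known. Named intervals are the 6 of highest mean CPM in each kind of sequence, the 5 lowest and 5 highest P0 ratios among those with at least 100 P0 reads, the 5 lowest and 5 highest P8 fold changes past the threshold with a mean of at least 10 CPM over the P8 libraries, and those at the limits of the rule. Others were named after their values were seen. The labels do not say whether replicates came from separate animals, so p-values measure the spread between these samples only, which may be technical. Sampling noise was exceeded between the P8 replicates (chi-square over its degrees of freedom 3.24 in WT and 3.76 in KO). Gene models on scaffolds come from GENCODE by scaffold name. No genome of the files' build was used, so sequences were not analysed here.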

Additional observations from a re-analysis of the deposited data

Results flagged for a closer look

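Flagged here are 5 members at which KO and WT differed in opposite directions at P0 and P8. This held in every library available, which is 1 library per genotype at P0 and 2 at P8. Other members also had opposite signs. Of the 62 members with at least 100 P0 reads that were tested at P8, 18 were lower in KO at both ages and 22 higher at both. The rest had opposite signs, some of them with KO higher at P0 and lower at P8. The difference between the ages was not tested. The value given is the P8 log2 ratio minus the P0 log2 ratio of KO to WT. It was 5.48 at chr9:35216470-35275831, 2.75 at chrUn_JH584304v1:22337-51988, 2.43 at chrUn_JH584304v1:1629-19467, 1.77 at chr11:3075423-3112722 and 1.18 at chrUn_GL456378v1:11098-28621. At each of these 5 flagged members KO was lower at P0 and higher at P8. The value for the chromosome 9 interval joins an inner stretch that was lower in KO at both ages with a remainder that was higher in KO at P8.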

How the results depend on the processing

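The counts of members called at P8, 18 higher and 16 lower, depended on the settings. DESeq2 called 11 higher and 11 lower, as did edgeR without a filter. The fit to every deposited interval called 222 higher and 461 lower, over many overlapping members. Leaving out 1 library gave 11 to 19 higher and 10 to 17 lower, with the lowest counts, 11 and 10, without WT replicate 1. Same-numbered P8 replicates deviated together (correlation 0.36 over 9690 intervals), but the labels do not say that a number marks a shared source. With a replicate block 20 were called higher and 19 lower, and all 27 named members with a P8 fit kept their side.

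Log2 ratios of the P0 sums were -4.03 for scaffolds, -2 for starts and -6.73 for windows. Total-count scaling shifted every P0 ratio by -0.11 and gave -4.14 for scaffolds and -2.11 for starts. Over every deposited interval they were -5.97, -3.71 and -6.96. Taking the longest interval first gave -2.07 for starts. Dropping the 3 deep losses, chosen after seeing the data, gave 0.017 for starts. At P8 the ratios were -0.44, 0.0043 and -2.6, and -2.77, -0.17 and -4.08 over every interval. The starts had -0.044 with total counts and 0.10 without the deep losses, so their direction depended on the setting. The windows had -5.97 with the chromosome 9 interval reduced to its inner stretch. Leaving out 1 library kept the P8 sums within -0.48 to -0.39 for scaffolds, -0.03 to 0.03 for starts and -2.64 to -2.56 for windows.

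Among named members, 3 that had not passed the test changed sign when single libraries were left out. Their log2 fold changes ranged from -0.20 to 0.44 at chr11:3262990-3263261, from -0.28 to 0.37 at chr13:3084362-3097820 and from -0.38 to 0.10 at chr4:3311511-3319949. The call at chr11:3241121-3262504 was lost with DESeq2 and without either WT library or KO replicate 2, and the one at chr15:3388443-3398706 with DESeq2 and without WT replicate 1. At GL456389v1:10461-10878, where the KO P8 libraries held 0 and 1 reads, the P8 log2 fold change was -6.97, -6.12 without KO replicate 1 and -9.5 without KO replicate 2. The P0 depth limits statements to intervals of about 100 reads or more.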

Other observations

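Outside the 3 kinds of sequence, 3 of 14035 intervals with at least 100 P0 reads were also at least 16-fold lower in KO at P0. At chr13:77586939-77587257 there were 335 reads in WT P0, 1 in KO P0, 9 and 7 in WT P8, and 0 in both KO P8 libraries. At chr8:23585426-23585833 there were 170 and 1 reads at P0, 1 and 3 in WT P8, and 0 in both KO P8 libraries. At chr12:67106104-67106292 there were 101 and 0 reads at P0, and 1 read in all P8 libraries together.

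Deposited intervals with different ends held identical counts at some of these places more than at others. Of the 56 that overlap the chromosome 2 window interval, 29 had the same counts in all 6 libraries, and so did 22 of 29 at the chromosome 12 interval, 12 of 21 on GL456389v1 and 7 of 8 on GL456396v1. The largest such group was a smaller share elsewhere. It was 15 of 40 at the chromosome 14 interval and 27 of 134 at the chromosome 9 window interval. At the chromosome 9 start it was 8 of 47, on GL456392v1 3 of 30 and on JH584304v1 4 of 47. Where counts were identical, the parts of an interval beyond the shared stretch added no read.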
